A study of Mus musculus with 4 samples.

Results

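The splicing of 10 genes that encode neural cell adhesion molecules was followed in brain tissue with and without the splicing regulator PTBP2. The genes were Ncam1, Cadm1, Cadm2, Cadm3, L1cam, Nrcam, Nfasc, Chl1, Ptprf and Ptprs. The deposited tables list exon trios, which are a middle exon with the exons before and after it, and they carry no gene names. A trio was assigned to a gene when its chromosome, strand, middle exon length and both intron lengths matched a transcript of GENCODE mouse release 21. This gave 305 trios of 228333 in the tables, with 233 different middle exons. Of the 305 trios, 33 with 28 middle exons were labelled as cassette exons in the authors' exon database, and 272 were labelled constitutive. Some middle exons have trios of both labels.

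The RNA came from mice of a strain labelled Mixed C56Bl/6:129S2. At embryonic day 18 (E18) it was taken from whole brain, with 2 brains in each group. The Ptbp2-NesKO embryos were homozygous for a Ptbp2 allele with loxP sites around exon 4 and carried Cre under the nestin promoter, which acts in neural progenitors and therefore also reaches glia. At postnatal day 1 (P1) it was taken from dissected cortex, where Ptbp2-EmxKO pups had the same floxed allele with Cre from the Emx1 locus, which acts in progenitors of the dorsal telencephalon and leaves other cells of the cortex with PTBP2. Wild-type littermates were the controls, and how many animals gave each P1 library is not stated in the sources used here. There was 1 library in each of the 4 groups. Tests on their reads therefore compare libraries and not genotypes, and the spread between animals is unknown. Stage, tissue, Cre line and library type (strand specific at P1 only) cannot be told apart.

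Cell adhesion molecules of the immunoglobulin superfamily hold neuronal membranes together and pass signals into the cell. NCAM, encoded by Ncam1, binds to itself on the opposing cell, and its splice forms differ in how far the protein reaches into the cytoplasm. The Cadm proteins span the synaptic cleft. L1cam, Nrcam, Nfasc and Chl1 form the L1 family, which links axonal membranes to the cytoskeleton through ankyrins, and Ptprf and Ptprs are LAR-type receptor tyrosine phosphatases with adhesive ectodomains. Many of these genes insert short exons that change the protein by a few residues without changing the reading frame.

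The cassette exons of these genes were short and mostly kept the reading frame. Of the 28 cassette middle exons, 24 (85.7%) had a length that is a multiple of 3, against 50.3% of the 8711 cassette middle exons of all named genes. They ranged from 12 to 801 nt with a median of 49.5 nt, and 18 of them (64.3%) were at most 60 nt long, against 1744 of the 8711. The sequences of the exons to which the results below refer most are given here as GENCODE transcripts hold them, read 5′ to 3′ along the mRNA. The exon is in capitals, and 12 bases of each neighbouring exon of the same transcript are in lower case. The Ncam1 exon of 801 nt is shown by its first 90 bases only. All of them are coding exons in at least 1 annotated transcript, and their positions are those of the deposited tables in the mm9 build.

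The first group holds exons past the read test used below, either with 10 PSI points at a stage or at both stages. They are the Ncam1 exon of 801 nt at chr9:49314958-49315758 on the minus strand, the Cadm3 exon of 102 nt at chr1:175279153-175279254 on the minus strand, the Cadm1 exon of 84 nt at chr9:47626817-47626900 on the plus strand and the Ncam1 exon of 30 nt at chr9:49358645-49358674 on the minus strand. This 30-nt exon is known as VASE and inserts residues in the fourth immunoglobulin domain.
Ncam1, 801 nt (first bases): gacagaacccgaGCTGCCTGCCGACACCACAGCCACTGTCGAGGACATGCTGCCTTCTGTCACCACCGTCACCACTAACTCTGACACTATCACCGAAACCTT
Cadm3, 102 nt: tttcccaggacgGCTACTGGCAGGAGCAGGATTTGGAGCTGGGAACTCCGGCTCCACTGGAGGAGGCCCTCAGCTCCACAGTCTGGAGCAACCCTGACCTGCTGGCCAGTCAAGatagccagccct
Cadm1, 84 nt: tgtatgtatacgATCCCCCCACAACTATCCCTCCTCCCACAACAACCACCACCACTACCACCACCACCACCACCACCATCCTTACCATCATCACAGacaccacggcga
Ncam1, 30 nt: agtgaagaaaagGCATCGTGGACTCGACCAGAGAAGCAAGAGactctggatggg

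The second group shows the neighbouring cassette exons of Cadm1, which share splice partners with the 84-nt exon. They lie at chr9:47637460-47637492 and chr9:47644800-47644853 on the plus strand. The 12 bases before the 33-nt exon are the same as those before the 84-nt exon, and the first bases after the 84-nt exon are the start of the 33-nt exon. Of the bases of the 84-nt exon, 67.9% are pyrimidines, against 42.4% in the 33-nt exon.
Cadm1, 33 nt: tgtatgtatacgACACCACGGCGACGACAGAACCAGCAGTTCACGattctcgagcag
Cadm1, 54 nt: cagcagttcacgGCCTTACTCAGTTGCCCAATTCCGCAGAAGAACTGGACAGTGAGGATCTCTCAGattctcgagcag

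The third group holds the 27-nt exons of the LAR-type phosphatases, whose knockout and wild-type levels lay close together. They are at chr4:117900424-117900450 for Ptprf and chr17:56567214-56567240 for Ptprs, both on the minus strand. They are identical at 14 of 27 positions (51.9%).
Ptprf, 27 nt: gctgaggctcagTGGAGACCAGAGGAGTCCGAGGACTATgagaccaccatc
Ptprs, 27 nt: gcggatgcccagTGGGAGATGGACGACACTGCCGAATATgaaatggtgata

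At E18 the NesKO library held 48367448 reads on distinct junctions and its wild type 50188724, and at P1 the EmxKO held 83110007 and its wild type 83394001. Exon 4 of Ptbp2, which the knockout removes, was left out in 100.0% (95% Wilson interval 98.5 to 100.0) of NesKO and 0.225% (0.0400 to 1.27) of E18 wild-type reads. In the EmxKO it was skipped in 82.6% (79.9 to 85.1), and in the library labelled P1 wild type in 31.5% (29.5 to 33.7). That library thus held skipped transcripts to a share that the E18 wild type did not, and every P1 difference below is relative to it. Marker genes of the labelled tissues were detected, with all 6 neuronal markers present (2072 to 3005 in sum, in reads on distinct junctions scaled to 1000000 in the library, called RPM below) and 4 cortical projection neuron genes at 135 and 147 at E18 against 418 and 496 at P1. Microglial genes summed to 88.3 against 63.3 RPM in the NesKO and its control and to 50.5 against 32.7 at P1. Of the 5 astroglial genes, Gfap stood at 65.9 against 23.7 and at 28.8 against 12.3, whereas the summed list was at 568 against 665 and 478 against 416. Neuronal markers summed to 2072 against 2347 at E18 and to 2948 against 3005 at P1, but single genes went different ways. Snap25 was at 90.2 against 193 and 64.3 against 127, and Map2 at 273 against 390 and 367 against 635, whereas Tubb3 was at 965 against 994 and 1526 against 1213. In bulk tissue fewer cells of a type and less RNA per cell cannot be told apart, and the part of these shifts in the splicing results was not tested.

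Few exons of the adhesion genes differed between knockout and wild type, and those past both limits used here lay in 3 genes. PSI, the percent of transcripts that include the middle exon, was taken from the ratio that the authors' SpliceTrap run estimated, and a trio was tested where each library of the stage had at least 20 junction reads. At E18, 10 of 302 tested trios (3.31%) differed by at least 10 PSI points, 8 of them higher in the NesKO, where 2.4% of all 159345 trios did. At P1, 11 of 303 (3.63%) differed, 6 of them higher in the EmxKO, where the share of all 159174 trios was 1.52%. Fisher's exact test (two-sided) then set the junction reads of both libraries against each other, and its p-values were adjusted by Benjamini-Hochberg over all tested trios. Past both limits were 4 member trios at E18 (1.32%, all trios 0.158%) and 5 at P1 (1.65%, all trios 0.2%). They belong to only 2 and 3 middle exons: the Ncam1 exon of 801 nt and the Cadm3 exon of 102 nt at both stages, and the Cadm1 exon of 84 nt at P1. Among the 33 cassette-labelled trios, 6 differed by 10 points at each stage (18.2%, against 11.5% and 9.81% of all cassette trios). With the read test, 4 (12.1%) and 5 (15.2%) did, against 2.02% and 2.78%. The median change over all member trios was 0.0 at both stages, as over all trios.

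**Figure D1:**
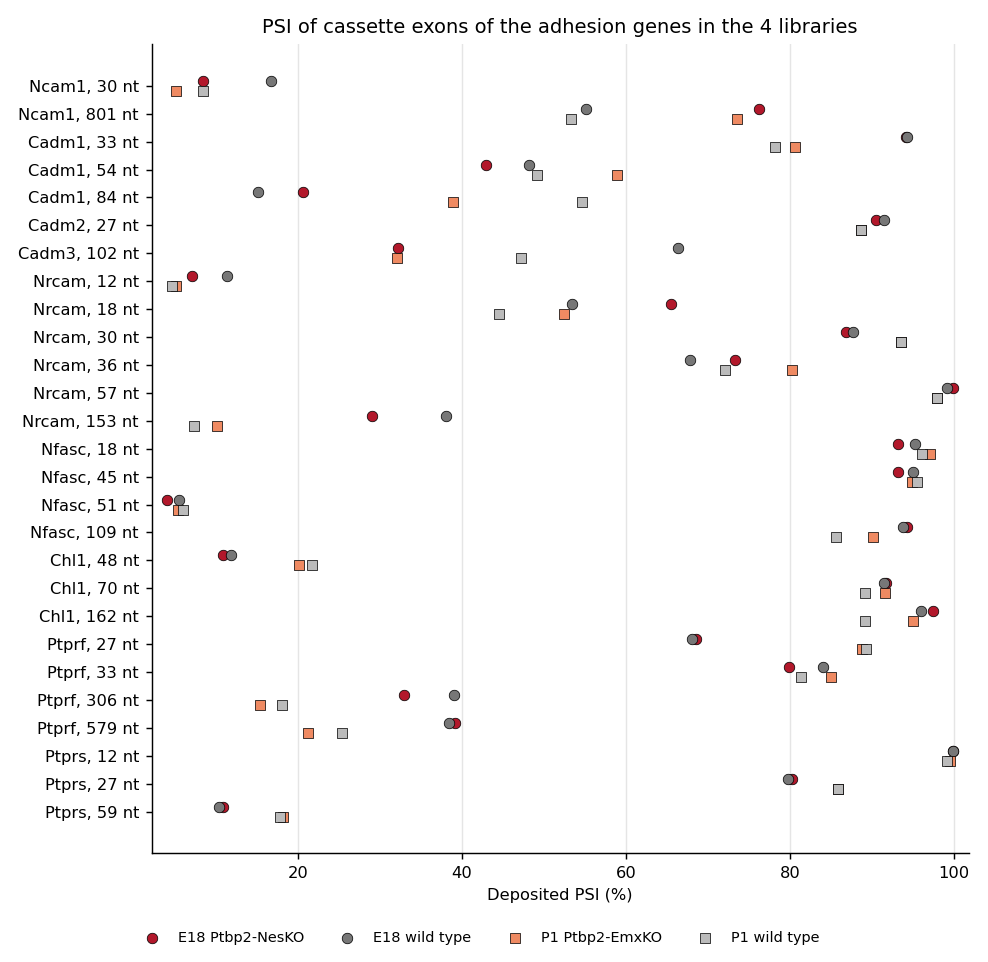
Deposited PSI in percent (x axis) of 27 cassette exons of the adhesion genes (y axis, gene and exon length) in the 4 libraries, circles for E18, squares for P1, red tones for knockout and grey for wild type. The widest gaps between knockout and wild type are those of Ncam1 801 nt (76.2% against 55.2%, 73.5% against 53.3%), Cadm3 102 nt (32.2% against 66.4%, 32.1% against 47.2%) and, at P1, Cadm1 84 nt (38.9% against 54.7%). Most exons of Ptprf, Ptprs and Nfasc lie close together within a stage.

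The exon of 801 nt of Ncam1 was included more in both knockouts. It encodes the cytoplasmic insert of the longest NCAM form. Its PSI was 76.2% in the NesKO, 55.2% in the E18 wild type, 73.5% in the EmxKO and 53.3% in the P1 wild type, so both knockouts lay above both wild types. The junction PSI, which divides the mean of both inclusion junctions by that mean plus the skipping reads, was 81.6% (95% Wilson interval 80.3 to 82.8) against 61.7% (60.2 to 63.2) at E18. At P1 it was 72.0% (70.8 to 73.1) against 50.2% (48.8 to 51.6). No intervals of the 4 libraries overlapped. The differences were 19.9 points (interval 18.0 to 21.8) at E18 and 21.8 points (19.9 to 23.6) at P1, with adjusted p of 3.46e-82 and 1.43e-113 by Fisher's exact test. The test of a difference between the stages gave an adjusted p of 1.0.

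The read counts behind this exon were uneven between its ends. At E18 the NesKO had 5403 reads on the upstream and 576 on the downstream inclusion junction, with 673 reads that skipped the exon. The E18 wild type had 4809, 431 and 1626. The P1 libraries were more even, with 5376, 2992 and 1628 reads in the EmxKO and 3147, 1697 and 2401 in the wild type. Each junction alone gave the same direction. By the upstream junction, PSI was 88.9% against 74.7% at E18 and 76.8% against 56.7% at P1. By the downstream junction, it was 64.8% against 41.4% at P1, and at E18 the counts above give the same order. Gene-wide junction reads of Ncam1 were close to the control at E18 (1458 against 1542 RPM) and higher at P1 (1053 against 838).

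The VASE exon of Ncam1 moved the other way. It was rarely used in any library, and its PSI was 8.4% in the NesKO against 16.8% in the E18 wild type, and 5.2% in the EmxKO against 8.5% in the P1 wild type. The junction PSI was 4.79% (3.98 to 5.76) against 11.1% (9.78 to 12.5) at E18 and 3.49% (2.94 to 4.15) against 5.75% (4.95 to 6.67) at P1. The changes stayed under 10 points but passed the read test, with adjusted p of 2.64e-11 and 0.00633 by Fisher's exact test. The skipping junction carried 2126 and 1828 reads at E18 and 3440 and 2672 at P1. The ends were uneven, with 28 and 82 reads on the upstream and 186 and 373 on the downstream junction at E18, and 55 and 79 against 194 and 247 at P1. By the upstream junction, the lower of both, the change was -2.99 points at E18 (adjusted p of 5.77e-06 by Fisher's exact test). At P1 it was -1.30, and the test was not passed (0.109). The exon is shorter than a read, so its upstream junction may lack reads that were counted downstream. That junction therefore does not decide whether the P1 difference holds. By the downstream junction alone, knockout and wild type had 8.0% and 16.9% at E18 and 5.3% and 8.5% at P1. These values lay near the deposited PSI, and the junction PSI, which averages both ends, may understate inclusion. The EmxKO and the NesKO intervals overlapped, and so did those of the NesKO and the P1 wild type, whereas the E18 wild type stood above the other libraries.

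Of the other Ncam1 trios, which are labelled constitutive, none differed by 10 points at either stage. An alternative acceptor of 3 nt inside the gene, which the naming rule could not reach because it has only 1 intron, had a deposited PSI of 23.2% and 22.7% at E18 and of 20.5% in both P1 libraries. Its spliced inclusion junction held only 3, 6, 4 and 0 reads in the NesKO and its control and in the EmxKO and its control. Skipping reads were 4416, 5205, 4771 and 3669. All 3 junction columns together held 5783, 6752, 6048 and 4636 reads. The rest lay on the border between the 3 nt and the adjoining exon, which was not counted as a splice junction here. Reads on that border can also cross the acceptor.

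**Figure D2:**
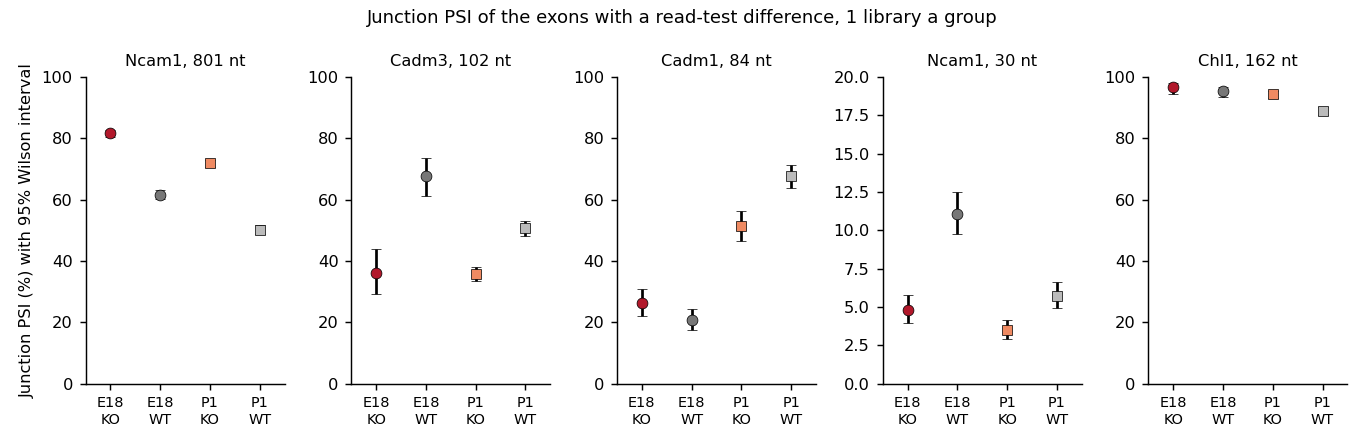
Junction PSI in percent (y axis, with its 95% Wilson interval as bars) of 5 exons in the 4 libraries (x axis). The y axis of the Ncam1 30-nt panel ends at 20%, the others at 100%. Ncam1 801 nt is higher in both knockouts, Cadm3 102 nt and Ncam1 30 nt are lower in both, and Cadm1 84 nt is slightly higher at E18 (26.3% against 20.8%) and lower at P1 (51.5% against 67.7%).

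The 102-nt exon of Cadm3 was included less in both knockouts. Cadm3 is a synaptic and axonal adhesion protein of the nectin-like family, and this exon is the second of 10 in the matched coding transcript. Its PSI was 32.2% in the NesKO and 66.4% in the E18 wild type, and 32.1% in the EmxKO and 47.2% in the P1 wild type. Both knockouts thus sat at almost the same level below 2 different control levels. The junction PSI was 36.2% (29.2 to 43.8) against 67.8% (61.3 to 73.7) at E18, a difference of -31.6 points (-40.7 to -21.6), and 35.8% (33.6 to 38.1) against 50.7% (48.3 to 53.1) at P1, a difference of -14.9 points (-18.2 to -11.6). Fisher's exact test gave adjusted p of 1.38e-06 and 3.88e-15. The knockout intervals overlapped each other, and those of the wild types did not. The difference between the stages had an adjusted p of 1.0.

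Depth differed between the stages for this exon. The 3 junctions held 222 and 365 reads at E18 and 2377 and 2484 at P1, although the gene as a whole had 265, 326, 301 and 282 RPM. Skipping reads were 104 in the NesKO against 70 in its control and 1123 in the EmxKO against 812. A 126-nt constitutive exon of Cadm3 stood at 99.9% in the EmxKO against 98.7% in its control, a change of 1.2 points that passed the read test (adjusted p of 2.17e-08 by Fisher's exact test).

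**Figure D3:**
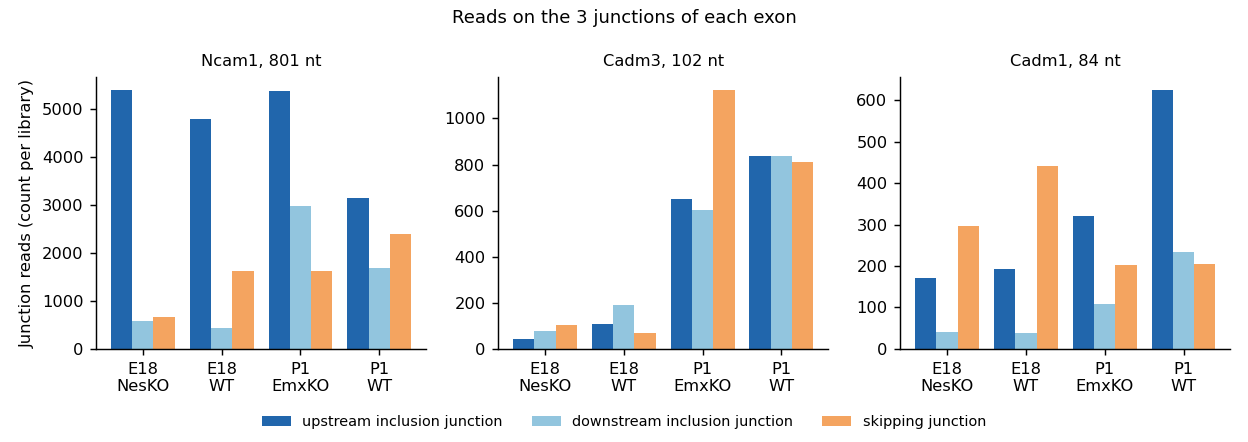
Reads per library (y axis, counts, not scaled for depth) on the upstream inclusion, downstream inclusion and skipping junctions of 3 exons in the 4 libraries (x axis). In Ncam1 801 nt the downstream junction at E18 has far fewer reads than the upstream one (576 against 5403 in the NesKO and 431 against 4809 in the wild type), and in Cadm3 102 nt skipping reads exceed each inclusion junction in both knockouts.

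The 84-nt exon of Cadm1 had opposite signs at E18 and P1. Cadm1 is a homophilic synaptic adhesion protein, and its alternative exons lie in the stalk between the immunoglobulin domains and the membrane. In the trio with the most reads, in which the next exon is the 33-nt exon, PSI was 20.6% in the NesKO and 15.1% in the E18 wild type but 38.9% in the EmxKO and 54.7% in the P1 wild type. The junction PSI was 26.3% (22.2 to 30.8) against 20.8% (17.6 to 24.3) at E18 and 51.5% (46.7 to 56.3) against 67.7% (64.0 to 71.2) at P1. The E18 libraries overlapped and all other neighbours in the order of levels did not. The difference was 5.52 points (0.115 to 11.0) at E18, which did not pass the adjusted test, and -16.2 points (-22.1 to -10.1) at P1, with an adjusted p of 0.000114 by Fisher's exact test. It was the 1 member trio of 302 whose change differed between the stages (adjusted p of 0.00207 by a Wald test), where 0.0818% of all trios did.

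A second trio of this exon, which joins it to the exon after the other cassette exons, had the same directions with fewer skipping reads. Its PSI was 48.4% against 31.2% at E18 and 44.2% against 54.7% at P1. Its junction PSI differed by 8.17 points (-2.14 to 18.0) and by -6.04 points (-13.2 to 0.923), and neither passed the read test (adjusted p of 1.0 at both stages, Fisher's exact test). The wild types of this trio differed by 11.8 junction points between the stages, against 46.9 in the trio above. Reads of 100 nt that cross into a 33-nt exon can run past its other end, and the same junction carried different counts in different trios. The junction that skips the 84-nt exon to reach the 33-nt exon had 441 reads in the E18 wild type in the trio of the 84-nt exon and 1029 reads in that of the 33-nt exon, where it is an inclusion junction. In the P1 wild type these counts were 205 and 702. How much this moves the PSI of the 84-nt exon was not tested.

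The other Cadm1 cassette exons differed less. The 33-nt exon had a PSI of 94.2% in the NesKO, 94.3% in the E18 wild type, 80.6% in the EmxKO and 78.2% in the P1 wild type. The junction difference was -0.948 points (-4.83 to 2.56) at E18 and 2.06 points (-3.16 to 7.18) at P1. The 54-nt exon had 42.9%, 48.2%, 58.9% and 49.2%, with junction differences of -1.09 points (-9.98 to 7.62) and 7.82 points (1.15 to 14.4) that did not pass the adjusted test. A further trio of the 54-nt exon that matched no transcript stood at 38.8% against 25.6% at P1 (adjusted p of 0.112 by Fisher's exact test). Cadm2 had 1 cassette exon, of 27 nt, which was included at 90.5%, 91.5%, 88.7% and 88.7%. Its junction difference was -2.86 points (-13.5 to 6.33) at E18, where the trio held 148 and 267 reads, and -2.09 points (-9.80 to 5.18) at P1.

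**Figure D4:**
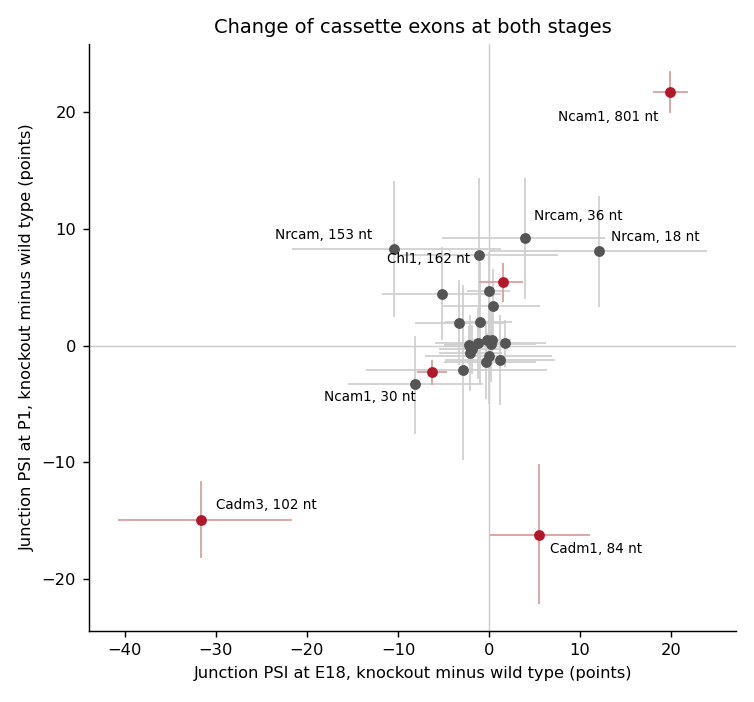
Difference in junction PSI, knockout minus wild type in points, at E18 (x axis) and P1 (y axis) for 27 cassette exons, with the 95% interval of each difference as bars and exons past the read test at a stage in red. Ncam1 801 nt is up at both stages (19.9 and 21.8), Cadm3 102 nt is down at both (-31.6 and -14.9) and Cadm1 84 nt is alone among the red points in having opposite signs (5.52 and -16.2).

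In the L1 family no cassette exon changed by 10 points with the read test. The L1 family member Chl1, the close homologue of L1, had a 162-nt exon that was included at 97.4%, 96.0%, 95% and 89.2% in the NesKO and its control and in the EmxKO and its control. At P1 its junction PSI was 5.51 points (3.77 to 7.14) higher in the EmxKO, with an adjusted p of 1.74e-06 by Fisher's exact test. Skipping reads were 74 of 2623 and 312 of 5362. At E18 the difference was 1.49 points (-1.13 to 3.75). The 48-nt exon of Chl1 stood at 10.9%, 11.9%, 20.1% and 21.7%, and the 70-nt exon, annotated in the 5′ untranslated region, at 91.7%, 91.5%, 91.6% and 89.2%.

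Nrcam, a node and axon adhesion protein, had the most cassette exons of the set, 7, of which 6 kept the frame. The 18-nt exon had a PSI of 65.5% in the NesKO, 53.5% in the E18 wild type, 52.5% in the EmxKO and 44.5% in the P1 wild type. Each knockout was above its control, by 12.1 junction points (-0.019 to 23.9) at E18 and 8.10 points (3.37 to 12.8) at P1. The adjusted p values were 1.0 and 0.148 by Fisher's exact test, and the E18 libraries had only 135 and 290 reads. The difference rests on the upstream junction, since the downstream one held 3 and 8 reads at E18 and 55 and 66 at P1 and alone gave 0.448 and 1.07 points. In the 36-nt exon each knockout was also above its control, at 73.3%, 67.8%, 80.2% and 72.1%, with an adjusted p of 0.107 at P1 by Fisher's exact test. The 153-nt exon went from 38.1% in the E18 wild type to 7.4% in the P1 wild type, with the NesKO at 29.0% and the EmxKO at 10.1%.

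The other frame-keeping Nrcam exons sat near their limits. The 30-nt exon was at 86.8%, 87.7%, 93.6% and 93.5%, and its interval of the difference was -5.98 to 3.34 points at E18 and -2.86 to 3.27 at P1. The 57-nt exon lay between 97.9% and 99.9% in all libraries, and the 12-nt exon was at 7.1%, 11.4%, 5.2% and 4.7%. A 62-nt exon of Nrcam, found only in a transcript annotated as subject to nonsense-mediated decay, is listed at 0 in all libraries with 45 to 118 reads on its upstream junction and none on the others, so no level can be given.

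Nfasc, or neurofascin, had 4 cassette exons and none past the read test. The 18-nt exon was at 93.2%, 95.2%, 97.1% and 96.1%, and the 45-nt exon at 93.2%, 95%, 94.9% and 95.5%. The 51-nt exon was mostly skipped, at 4.1%, 5.5%, 5.4% and 6.0%, with an interval of the difference of -5.55 to 1.32 points at E18 and -2.38 to 1.75 at P1. The 109-nt exon, annotated in the 5′ untranslated region, was at 94.3%, 93.8%, 90.1% and 85.6%. For L1cam, which had no cassette-labelled trio in the tables, the lowest exon was one of 123 nt with a PSI of 98.3%, 99.6%, 97.2% and 97.9%. Its 28 trios held no change of 10 points at either stage.

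For the 27-nt exons of both receptor phosphatases the levels lay further apart between the stages than between knockout and wild type. The 27-nt exon of Ptprf had a PSI of 68.5% in the NesKO, 68.1% in the E18 wild type, 88.8% in the EmxKO and 89.3% in the P1 wild type. The junction differences were -0.0370 points (-6.99 to 6.93) at E18 and -0.871 points (-4.95 to 3.32) at P1. The 27-nt exon of Ptprs had 80.3%, 79.8%, 85.9% and 85.9%, with differences of 0.164 points (-4.74 to 5.16) and 0.170 points (-3.13 to 3.53).

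The deposited PSI of the longer Ptprf exons was lower at P1. The 306-nt exon was at 32.9% and 39.0% at E18 and at 15.4% and 18.1% at P1, and the 579-nt exon was at 39.2% and 38.5% and then at 21.3% and 25.4%. For the 579-nt exon both inclusion junctions of the wild types were lower at P1, by -13.5 and -7.53 points. For the 306-nt exon the junctions went opposite ways. Its upstream junction, with 37 reads in the E18 wild type, gave a PSI of 15.7% at E18 and 19.2% at P1, and its downstream junction, with 265 reads, gave 57.1% and 19.9%. The 33-nt exon stood at 79.9%, 84.1%, 85.0% and 81.4%, where the wild types lay closer together than each knockout and its control. In Ptprs the 12-nt exon was at 99.2% to 99.9%. Its upstream junction held 140, 163, 213 and 173 reads against 4459 to 6573 downstream, and alone gave 95.9%, 98.8%, 86.9% and 81.6%. Reads that cross both ends of these 12 nt may be counted downstream only, so the upstream values can understate inclusion. The 59-nt exon, which is annotated only in a non-coding transcript, was at 10.9%, 10.4%, 18.2% and 17.9%. These values rest on its upstream junction, and a 306-nt exon of the gene has the same start and upstream intron. Its downstream junction held 5, 4, 16 and 13 reads and alone gave 0.396%, 0.389%, 0.82% and 0.829%. An alternative acceptor of 9 nt in Ptprs, outside the naming rule, had a deposited PSI of 3.4% and 1.9% at E18 and of 46.2% and 47.7% at P1. Its spliced inclusion junction held 0, 0, 5 and 5 reads against 75, 75, 288 and 234 skipping reads. All 3 junction columns together held 80, 78, 654 and 535 reads. The rest lay on the border between the 9 nt and the adjoining exon, which was not counted as a splice junction here. Reads of 100 nt on that border can also cross the acceptor, so the low count of the spliced junction does not show that inclusion reads were lacking.

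More adhesion trios differed between the wild types than between knockout and wild type. The library labelled P1 wild type also skipped Ptbp2 exon 4 in 31.5% of reads, against 0.225% in the E18 wild type. The part of this in the differences between the wild types was not tested. From E18 brain to P1 cortex, 22 of 302 member trios (7.28%) moved by at least 10 PSI points, against 4.28% of all trios, and 9 of the 33 cassette-labelled trios (27.3%) did, against 21.5%. These were 7 cassette exons, and the interval of the junction difference lay off 0 for all 7. The Cadm1 84-nt exon (46.9 junction points higher at P1, 41.8 to 51.7) and the Ptprf 27-nt exon (28.4, 22.4 to 34.2) were higher at P1. The Nrcam 153-nt exon (-44.1, -52.0 to -35.5), the Ptprf 306-nt exon (-23.6, -29.6 to -17.4), the Cadm1 33-nt exon (-18.6, -22.7 to -14.4), the Cadm3 102-nt exon (-17.1, -23.4 to -10.2) and the Ptprf 579-nt exon (-10.6, -15.8 to -5.44) were lower. Each inclusion junction alone kept the direction in 6 of the 7, and for the Ptprf 306-nt exon the upstream junction turned it (3.57 points, against -37.2 by the downstream junction). The value of the Nrcam 153-nt exon rests on its downstream junction, which had 168 reads at E18 and 32 at P1 and gave -54.7 points. Its upstream junction had 7 and 5 reads and gave -5.71. The Ncam1 exon of 801 nt had -11.5 junction points (-13.5 to -9.45), with its deposited PSI moving by less than 10, and its ends went opposite ways (-18.0 upstream and 20.5 downstream), so no direction is given for it. The 22 trios lay on 19 middle exons. By the trio with the most reads, 14 middle exons passed 10 PSI points, and the 7 of them not named above were labelled constitutive. Of these, 1 had an interval of the junction difference off 0, the Nrcam exon of 159 nt (3.01, 1.21 to 5.45), and 1 a junction difference of 10 points, the Nfasc exon of 205 nt (-12.1, -28.1 to 2.82).

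The exons labelled constitutive were included almost completely. Of 203 such middle exons, 196 in the E18 wild type and 195 in the P1 wild type had a PSI of at least 95%, and 201 and 199 differed by less than 5 points between knockout and wild type. Of the 10 trios past 10 points at E18, 4 were labelled constitutive, as were 5 of the 11 at P1. All of them had at most 10 skipping reads in each library of the stage, and 2 at E18 and 1 at P1 had none. The Ptprf exon of 582 nt had a deposited PSI of 99.9% in the NesKO against 74.8% in its control, where 439 and 472 junction reads held no skipping read, so the junction PSI was 100.0% in each. The Nfasc exon of 153 nt stood at 99.9% in the EmxKO against 87.6% in its control, again with no skipping read. The differences of these Ptprf and Nfasc exons are in the deposited ratio and not in the junction reads. That ratio also uses reads within exons, whose part was not tested. Of all trios past 10 points, 6 at E18 and 5 at P1 also had a junction change of 10 points, at E18 not all of them cassette-labelled.

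**Figure D5:**
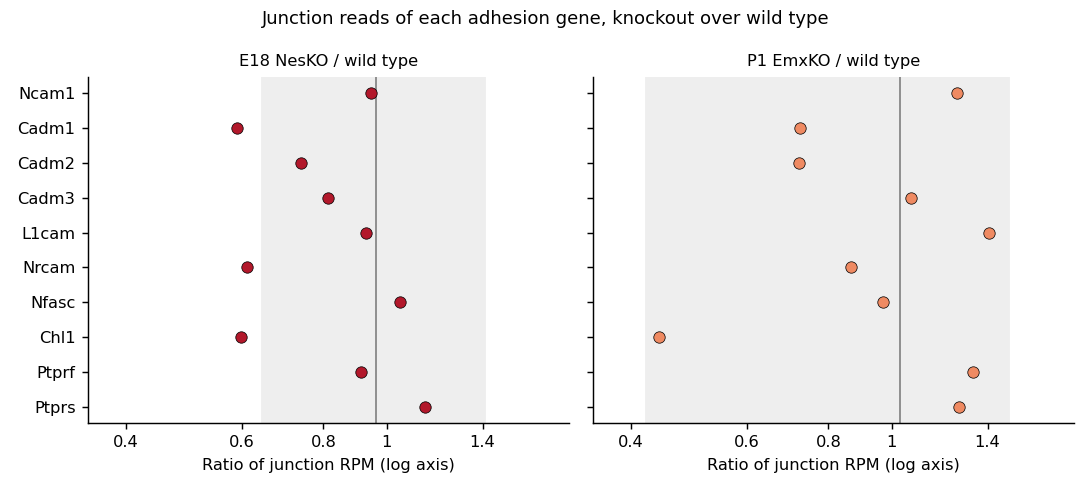
Ratio of junction RPM, knockout over wild type (x axis, log scale), of the 10 adhesion genes at E18 (left) and P1 (right). The grey band spans the central 90% of all genes with at least 100 reads and the line marks their median (0.963 and 1.03). Cadm1, Nrcam and Chl1 lie left of the band at E18, and Chl1 is lowest at P1 (0.441).

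The amount of each transcript also differed between libraries. Reads on all distinct junctions of Chl1 were at 172 RPM in the NesKO against 287 in the E18 wild type (ratio 0.599) and 289 in the EmxKO against 655 in the P1 wild type (0.441). Cadm1 was at 163 against 276 (0.590) and 114 against 157 (0.724), and Nrcam at 153 against 249 (0.612) and 289 against 335 (0.865). These 3 lay below the central 90% of 12594 genes at E18, which ran from 0.644 to 1.41, and within that of 12357 genes at P1, from 0.422 to 1.51. Cadm2 was lower too, at 29.2 against 39.5 (0.739) and 27.0 against 37.4 (0.722). L1cam (0.928 and 1.41), Ptprf (0.913 and 1.33) and Ptprs (1.14 and 1.27) were the highest at P1, and Nfasc was near its control (1.05 and 0.970). With 1 library in a group these ratios have no error, and no test was made.

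Other adhesion genes of the brain served for comparison. Of 43 listed symbols 40 were found, with 847 trios, of which 2 of 786 (0.254%) at E18 and 2 of 772 (0.259%) at P1 passed 10 points and the read test. The clearest was the 348-nt exon of Nptn (neuroplastin), with a PSI of 30.9% against 18.2% at E18 and 23.7% against 10.3% at P1 (adjusted p of 1.49e-06 and 9.37e-27 by Fisher's exact test). Kirrel at E18 and Tenm3 at P1 had the others. No test compared the 10 genes with these.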

How the data were processed

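Paired reads of 100 nt from polyA+ RNA were placed by the authors on exon combinations with SpliceTrap, which gave 1 deposited table for each of the 4 libraries. The submitters' notes name mm9, CASAVA, TopHat and Cufflinks without their roles. The deposited inclusion ratio is a fraction, estimated by the authors before and after a correction; the value after it, in percent, was used as PSI. The deposited junction reads are raw counts per junction, and a junction can stand in several trios. In most cassette exons shorter than a read, the end that comes first in the genome held more reads. This is the upstream end on the plus strand and the downstream end on the minus strand. The Nrcam exon of 30 nt at E18 was an exception (346 and 369 reads in the NesKO). Whether reads that cross both ends were counted at 1 end only was not tested. The exon coverage values and splicing calls were not used. Genes were named through lengths in GENCODE release 21, which is on another build, and no coordinate was converted. The members and lists were chosen with earlier results of these data known.

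A trio needed 20 junction reads in both libraries of a stage. Junction PSI divided the mean inclusion reads by that mean plus the skipping reads, with 95% Wilson intervals, and intervals of differences were Newcombe's. Fisher's exact test (two-sided) used the rounded mean inclusion reads and the skipping reads, adjusted by Benjamini-Hochberg over all tested trios. The difference between stages was a Wald test of the log odds ratios with 0.5 added to each count. Reads include PCR copies, so intervals and floors describe counting error only. At the median depth of the member trios, 3 reads were 0.642%, 0.508%, 0.324% and 0.277% of a trio in the NesKO and its control and in the EmxKO and its control. Each middle exon is described by its trio with the most reads, if it was cassette-labelled and tested or passed 10 points and the read test; L1cam is described by its exon of lowest PSI. Exons outside this rule (in Cadm3, Ptprf and Nfasc, the unmatched trios and the second trios) were chosen after their values were seen. Tests were checked on simulated reads, drawn independently with known changes. The simulation held no variation between animals and no PCR copies, so it does not bear on whether the differences reported here would repeat. Python 3.11.15, numpy 2.4.6, pandas 2.3.3, scipy 1.17.1 and matplotlib 3.10.9 were used.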

Additional observations from a re-analysis of the deposited data

Results flagged for a closer look

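The 84-nt exon of Cadm1 was the 1 member trio whose change between knockout and wild type differed between E18 brain and P1 cortex, by a Wald test of the difference of the log odds ratios (adjusted p of 0.00207). Its junction PSI was 5.52 points higher in the NesKO and 16.2 points lower in the EmxKO (-16.2). The test compares 4 libraries, and stage, tissue and Cre line cannot be told apart.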

How the results depend on the processing

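Each group had 1 library, so no library could be left out. No paired analysis was possible because each group has a single library and the tests compare the reads of 2 libraries. With 1 trio for each middle exon, that with the most reads, the trios past 10 PSI points numbered 5 at E18 and 6 at P1. Those that also passed the read test numbered 2 and 3. The trios past 10 points in the main count lay on 8 middle exons at each stage. For some of these exons the trio with the most reads did not pass 10 points, so the count depends on the trio used. With the adjustment alone taken over 1 trio for each middle exon and given to every trio of that exon, the count past both limits was 6 in place of 5 at P1, the added one being the second Cadm1 trio, and 4 at E18. Among cassette-labelled trios 6 passed 10 points at each stage. At a limit of 20 points 5 did at E18 and 2 at P1, of which 4 and 2 passed the read test, and the Cadm3 and Cadm1 exons were then not counted at P1. With PSI from junction reads, 7 passed 10 points at P1 in place of 11, and 7 in place of 10 at E18. The minimum of junction reads (10, 50 or none), the ratio before the correction, and names from a shared middle exon gave counts of 9 to 12 for 10 points. Of the changes past both limits, each of the 5 kept its sign under every alternative run. The smallest value in size was that of the second Cadm1 trio at P1 (-10.5 points, not past the read test), and by the lower inclusion junction the Ncam1 exon of 801 nt differed by 25.2 and 23.4 points. By the lower junction the Ncam1 exon of 30 nt differed by -2.99 and -1.30 points and passed the read test at E18 only. In an exon shorter than the reads, the lower junction may lack reads that were counted at the other end. It therefore does not decide whether the P1 difference holds. The same trio of the Cadm1 exon of 84 nt was the 1 whose change differed between stages under all 3 alternatives of that test.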
